A study of Drosophila melanogaster with 20 samples.

Results

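The Turandot genes examined here are TotA, TotB, TotC, TotM and TotX, picked by symbol as 5 of the 17609 genes in a raw count table of fly heads. Every library is a pool of 10 heads from 1-week-old unmated Drosophila melanogaster, and the 20 libraries form 4 groups of 5, which are w- females, w+ females, w- males and w+ males. The w- flies are white-eyed w1118 mutants, which lack a working copy of white (w), the gene for a transporter of eye pigment precursors. The w+ flies are red-eyed and carry a wild-type w allele from the Harwich strain that was backcrossed into w1118 for 10 generations. All 4 groups therefore share the w1118 background, the w+ side rests on 1 donor allele in 1 backcrossed line, and w+ females carry 1 copy of it beside the mutant one. The paper states that linkage is not fully accounted for, so Harwich variants linked to w may remain in w+ flies. The comparison of w- with w+ flies asks how head transcripts differ without white and any Harwich DNA linked to it, and it was made in each sex. Female heads were also set against male heads within each eye color.

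Turandot genes encode small secreted proteins of the hemolymph that are made mostly by the fat body. They are known as a systemic stress response, since heat, ultraviolet light, oxidants, desiccation and infection switch them on, often hours after the antimicrobial peptides. Induction of TotA by infection is known to need the JAK/STAT cytokine pathway, in which upd ligands act through the receptor dome and the kinase hop on the transcription factor Stat92E, together with the Imd pathway and its NF-kB factor Rel. The kinase Mekk1 is also known to control Turandot induction. Turandot proteins are known to protect the fly's own tissues from its antimicrobial peptides.

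In the BDGP6.54 annotation, TotA, TotC and TotB lie head to tail on the plus strand of chromosome arm 3R. TotA (FBgn0028396) spans positions 20871036 to 20871700, TotC (FBgn0044812) 20872988 to 20873580, and TotB (FBgn0038838) 20873938 to 20874522. The gaps between them are 1287 and 357 bp, and the cluster covers 3487 bp. TotX (FBgn0044810) is a gene of 1 exon farther along 3R, at 20904917 to 20905518 on the minus strand, inside an intron of the plus-strand gene Grik, a glutamate receptor subunit. TotM (FBgn0031701) is the only 1 of the 5 on arm 2L, at 5329857 to 5330464 on the plus strand, with the end of the minus-strand gene fusl 5 bp away. The exons of TotA, TotB, TotC, TotM and TotX add up to 579, 526, 530, 552 and 602 bp. Counting used strand, so reads of Grik and fusl are set apart from those of TotX and TotM, whereas reads that match several clustered Turandot copies equally well would be left out of a count of uniquely mapped reads, and the split among TotA, TotB and TotC is uncertain to that extent.

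The libraries held between 34.2 and 48.9 M counts on genes. The w transcript was at 0.10 to 0.44 CPM in w- females and 12.6 to 16.6 CPM in w+ females, and at 0.20 to 0.36 CPM in w- males and 8.43 to 11.9 CPM in w+ males, so all 20 libraries matched their eye color labels. CPM are counts per M of the library total, which was first scaled by edgeR's trimmed mean of M values (TMM). Markers of photoreceptors, neurons, fat body and hemocytes were detected in all 20 libraries, as heads hold all of these. Libraries that stood apart were w- female replicate 3 and w+ female replicate 4. In w- female replicate 3 the 5 midgut protease markers summed to 30.7 CPM, against at most 0.57 CPM in the other 19 libraries. In w+ female replicate 4 the 14 antimicrobial peptide genes summed to 5084 CPM, against at most 871.5 CPM elsewhere. Member differences between groups that rest on these libraries are given with and without them, and so are the antimicrobial peptide differences.

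TotA was the most abundant member and TotB was barely detected. TotA took 82903 of the reads over all libraries, or 63.7% of the reads on the Turandot family, TotX 28.4%, TotC 5.57% and TotM 2.27%. TotB collected 15 reads in all, never more than 3 in a library, and none in 10 of the 20 libraries. By group, TotB had 2 reads in w- females, 9 in w+ females, 3 in w- males and 1 in w+ males. The limit that a count of 0 allows, 3 counts, is 0.0567 to 0.0977 CPM in these libraries, so no fold is given for TotB and its differences were not detectable at this depth. Of the 3 other genes of the family, TotE and TotZ had 0 reads and TotF had 1.

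Levels of different genes are compared per kilobase of exon. In male heads the order was TotA, TotX, TotC and TotM in all 10 libraries. TotA averaged 197 ± 22.2 CPM per kb in w- males and 269 ± 42.6 CPM per kb in w+ males (SD, n = 5 each). TotX averaged 106 ± 7.43 and 130 ± 50.8 CPM per kb, TotC 13.0 ± 2.99 and 14.1 ± 4.99 CPM per kb, and TotM 1.03 ± 0.14 and 1.65 ± 0.56 CPM per kb in w- and w+ males (SD, n = 5 each). In w- males the ranges of these 4 genes did not overlap, and in w+ males only those of TotA and TotX did, through the TotX level of replicate 4.

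Female heads kept TotA on top in all 10 libraries, but the other 3 genes lay closer together. In w- females TotA averaged 95.7 ± 71.6, TotX 29.5 ± 8.34, TotC 22.5 ± 29.5 and TotM 11.04 ± 6.08 CPM per kb (SD, n = 5). In w+ females TotA averaged 134 ± 47.7, TotX 28.8 ± 7.57, TotC 19.99 ± 7.16 and TotM 14.5 ± 6.44 CPM per kb (SD, n = 5). TotX exceeded TotC in 4 of 5 libraries of each female group, and TotC exceeded TotM in 4 of 5 of each, so these neighbors in the order overlapped.

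**Figure D1:**
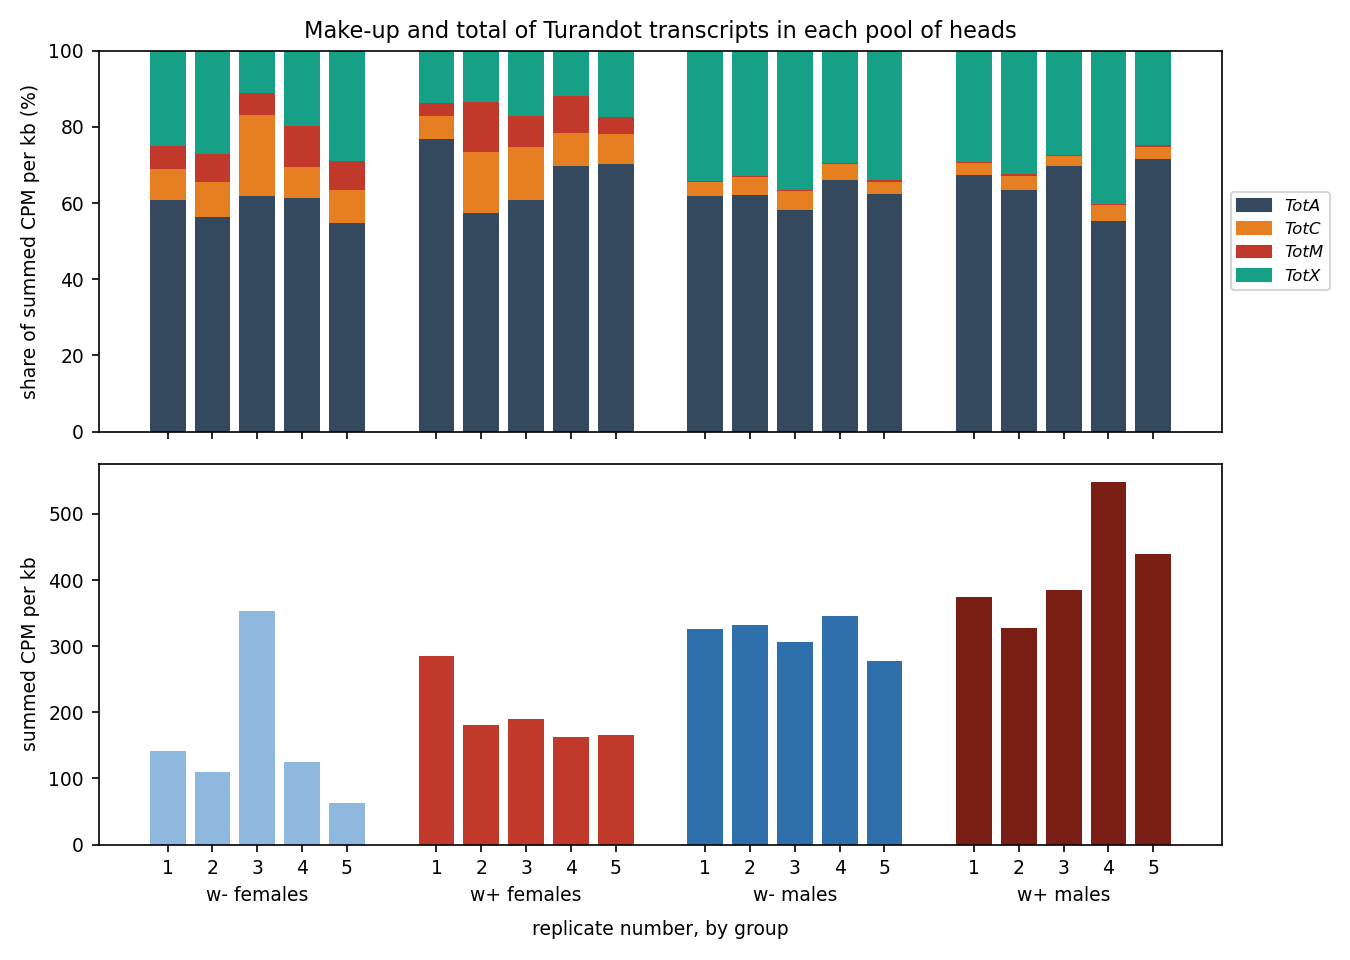
Share of each detected member in the summed Turandot level per kb of exon (upper plot, percent) and the sum itself (lower plot, CPM per kb), for each pool of heads, by group and replicate number. TotM makes up 3.41 to 13.2% of the sum in the 10 female libraries and at most 0.58% in the 10 male libraries, where TotX makes up 24.7 to 40.2%.

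The make-up of the Turandot pool thus differed between female and male heads of both eye colors, which is given here as shares of the summed CPM per kb. TotM held a median 7.23% of the sum in w- females and 8.29% in w+ females, and 0.33% in w- males and 0.35% in w+ males. TotX held a median 25.0% in w- females and 13.7% in w+ females, and 34.1% in w- males and 29.1% in w+ males. TotA held a median 60.8%, 69.7%, 62.0% and 67.5% in w- females, w+ females, w- males and w+ males. The summed level had a median of 124 CPM per kb in w- females and 181 CPM per kb in w+ females, and of 326 CPM per kb in w- males and 385 CPM per kb in w+ males. Of the 10 female libraries, only w- female replicate 3, at 354 CPM per kb, and w+ female replicate 1, at 285 CPM per kb, exceeded the lowest male library, at 277 CPM per kb.

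**Figure D2:**
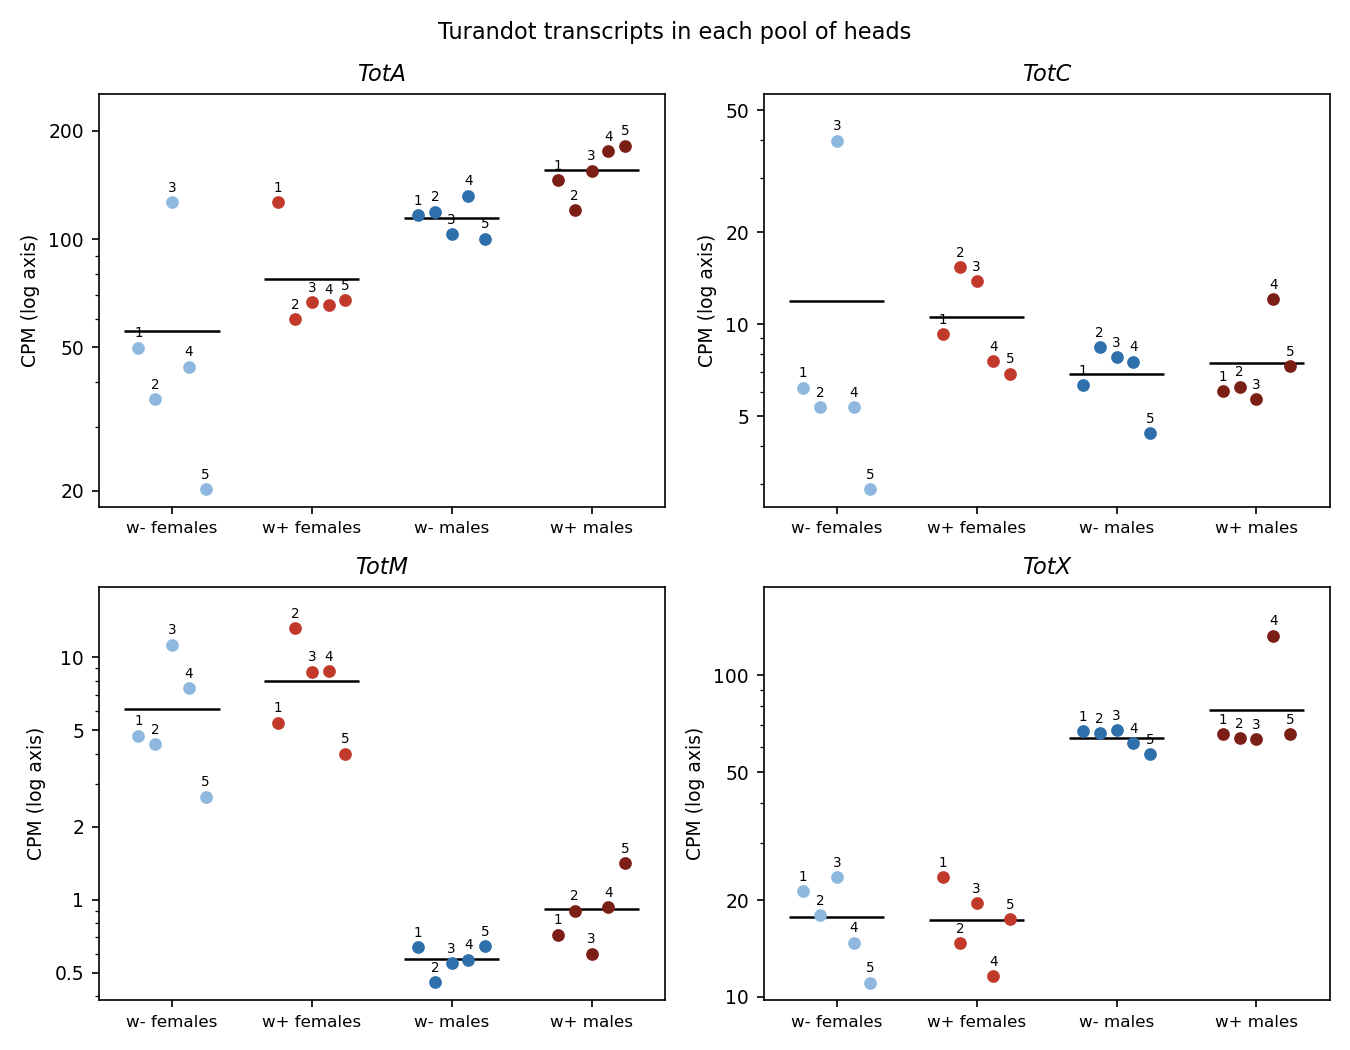
TotA, TotC, TotM and TotX in every library, in CPM on a log axis, with the replicate number above each point and the group mean as a line. TotM lies between 2.66 and 13.1 CPM in females and between 0.46 and 1.41 CPM in males, whereas TotX lies at or below 23.6 CPM in females and at or above 56.9 CPM in males.

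TotM and TotX did not overlap between the sexes in either eye color, and they differed in opposite directions. The share of all genes without such overlap is not given here, so it is not read as particular to these genes. Of all genes tested, 40.7% differed between the sexes in w- flies and 28.8% in w+ flies. TotM, which is known to rise in females exposed to male courtship song and to protect against fungi passed on at mating, was at 4.75, 4.38, 11.3, 7.43 and 2.66 CPM in w- females and at 0.64, 0.46, 0.55, 0.57 and 0.64 CPM in w- males (replicates 1 to 5). In w+ flies it was at 5.37, 13.1, 8.69, 8.76 and 3.99 CPM in females and at 0.72, 0.90, 0.60, 0.93 and 1.41 CPM in males. The sexes did not overlap, and the lowest female library was 4.13 times the highest male one in w- flies and 2.83 times in w+ flies. TotM was higher in females by 3.41 ± 0.40 on the log2 scale in w- flies (10.6-fold, adjusted p = 0.00017) and by 3.14 ± 0.36 in w+ flies (8.80-fold, adjusted p = 0.00027). The values after ± are standard errors, and adjusted p are from edgeR's quasi-likelihood test with Benjamini-Hochberg adjustment over all genes tested. These flies were unmated, and male TotM rested on 17 to 64 reads a library against 91 to 508 in females.

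TotX, another gene of this stress-induced family, was at 21.3, 18.0, 23.6, 14.7 and 11.1 CPM in w- females and at 66.8, 66.0, 67.4, 61.5 and 56.9 CPM in w- males. In w+ flies it was at 23.5, 14.7, 19.5, 11.6 and 17.5 CPM in females and at 65.5, 63.7, 63.3, 133 and 65.5 CPM in males. No female library reached the lowest male library of its eye color, which was 2.41 times the highest female library in w- flies and 2.69 times in w+ flies. In females TotX fell by 1.84 ± 0.19 on the log2 scale relative to males in w- flies (adjusted p = 7.7e-05) and by 2.16 ± 0.27 in w+ flies (adjusted p = 0.00053). Without w+ male replicate 4, which holds the TotX level of 133 CPM, the w+ difference was -1.88 ± 0.17 (adjusted p = 0.00019). Grik, the gene around TotX, differed by -0.09 ± 0.06 in w- flies (adjusted p = 0.28) and by -0.21 ± 0.06 in w+ flies (adjusted p = 0.023). The ratio of TotM to TotX in CPM ranged from 0.22 to 0.50 in w- females and from 0.23 to 0.89 in w+ females, and from 0.0069 to 0.011 in w- males and from 0.0070 to 0.022 in w+ males.

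TotA, the member best known as a systemic stress factor, was lower in females than in males in w+ flies. It was at 127, 59.9, 66.9, 65.8 and 67.8 CPM in w+ females and at 146, 120, 155, 176 and 182 CPM in w+ males, so that 4 of 5 female libraries lay below every male one. TotA fell by 1.00 ± 0.21 on the log2 scale in w+ females relative to w+ males (adjusted p = 0.0075). In w- flies it was at 49.9, 35.8, 127, 44.2 and 20.1 CPM in females and at 117, 119, 103, 132 and 100.4 CPM in males. The w- difference was -1.04 ± 0.44 (adjusted p = 0.093), and it was smaller with w- female replicate 3 than without it. Without that library, the highest of the w- females, TotA fell by 1.60 ± 0.25 on the log2 scale in w- females (adjusted p = 0.0018). Libraries scaled by their totals alone gave -1.23 (adjusted p = 0.038).

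TotC, a clustered neighbor of TotA, was at 6.19, 5.35, 39.8, 5.36 and 2.89 CPM in w- females and at 6.33, 8.40, 7.81, 7.54 and 4.41 CPM in w- males. In w+ flies TotC was at 9.29, 15.3, 13.9, 7.59 and 6.90 CPM in females and at 6.05, 6.24, 5.70, 12.1 and 7.30 CPM in males. Both pairs of groups overlapped. The sex difference of TotC was 0.79 ± 0.72 on the log2 scale in w- flies (adjusted p = 0.42) and 0.52 ± 0.29 in w+ flies (adjusted p = 0.20). In w- flies its sign came from w- female replicate 3, without which it was -0.47 ± 0.25 (adjusted p = 0.17). In w+ flies it was 0.86 without the libraries numbered 4 (adjusted p = 0.042).

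Of the 4 members with enough counts to test, 2 differed between w- females and w- males (1 higher, 1 lower) and 3 between w+ females and w+ males (1 higher, 2 lower). Of all genes tested, 40.7% passed the same test between the sexes in w- flies (21.4% higher and 19.2% lower in females) and 28.8% in w+ flies (16.9% higher and 11.9% lower). Differences in size as large as that of TotM were rare, as 0.72% of the genes tested had a larger one in w- flies and 0.51% in w+ flies. For TotX those shares were 1.94% and 1.02%. The w- and w+ sex comparisons share no library, but each shares its libraries with the eye color comparisons. The labels say that the samples of a group are separate pools and do not say whether they came from separate cultures, so the p-values measure the spread between these pools.

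Cell type markers moved with sex as well. In w- flies 5 of 6 fat body markers were higher in females, with summed levels of 7913 to 15180.5 CPM in w- females and 4349.7 to 6661 CPM in w- males, and in w+ flies 5 of 6 were higher, with 11565 to 24016 CPM in w+ females and 7065 to 10989.7 CPM in w+ males. The hemocyte markers were higher in females for 6 of 6 in w- flies, at 393 to 703 CPM in w- females and 192 to 296 CPM in w- males, and for 5 of 6 in w+ flies, at 336 to 409 CPM in w+ females and 206 to 273 CPM in w+ males. No marker of fat body or hemocytes was at 0 in any library. The photoreceptor markers were lower in females for 5 of 5 in w- flies, at 30863 to 33739 CPM in w- females and 38058 to 40996 CPM in w- males, and for 0 of 5 in w+ flies, at 33394 to 40956 CPM in w+ females and 36929 to 40898.5 CPM in w+ males. The neuron markers were lower in females for 4 of 5 in w- flies, at 4048 to 4540.1 CPM in w- females and 4782 to 5076 CPM in w- males, and for 1 of 5 in w+ flies, at 4000.0 to 4739.9 CPM in w+ females and 4677 to 5341 CPM in w+ males. TotM thus moved in the direction of the fat body and hemocyte markers, and TotX in that of the photoreceptor and neuron markers of w- flies. TotA, which passed in w+ flies, was lower in females too. The part of cell type content in these differences was not tested. In whole heads, fewer cells of a type and less RNA per cell cannot be told apart.

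**Figure D3:**
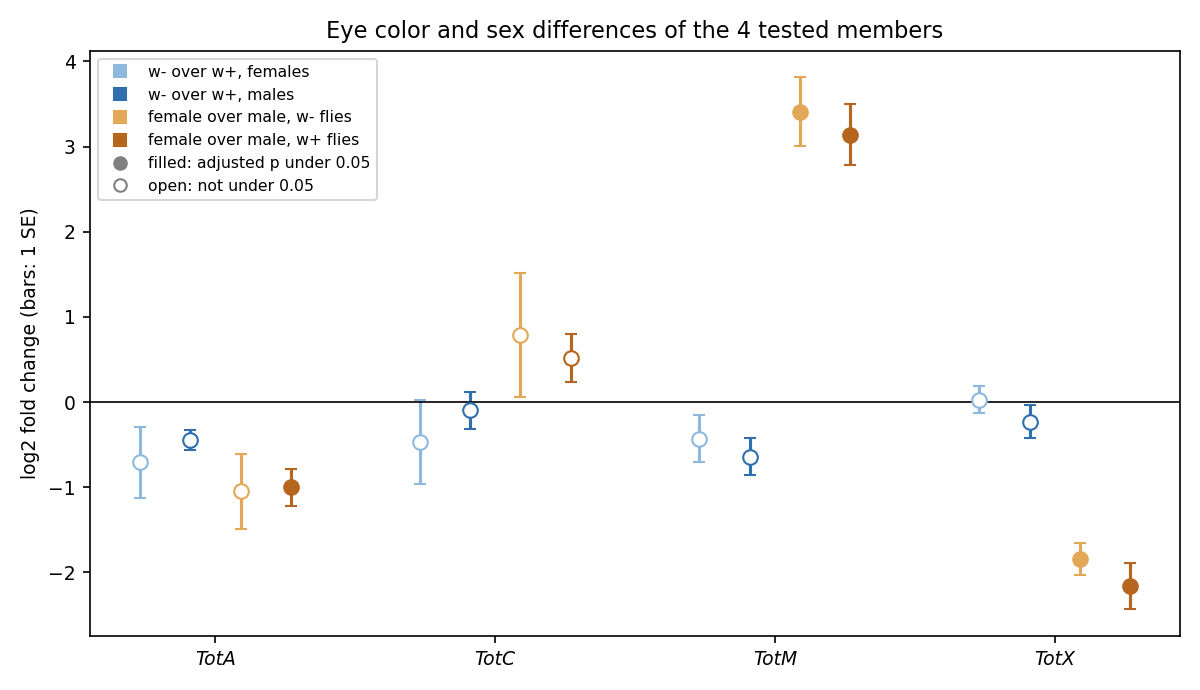
Log2 fold changes of TotA, TotC, TotM and TotX between w- and w+ flies of each sex and between females and males of each eye color, from edgeR's quasi-likelihood fits, with bars of 1 standard error. Filled points passed an adjusted p of 0.05, and these are the sex differences of TotM and TotX in both eye colors and of TotA in w+ flies, while no eye color difference passed.

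No tested member differed between w- and w+ flies past the threshold in either sex. In females 0 of 4 members passed, where 9.23% of all genes tested did (4.72% as higher, 4.51% as lower). In males 0 of 4 passed, where 12.7% of all genes did (4.64% as higher, 8.06% as lower). In males, TotA was at 117, 119, 103, 132 and 100.4 CPM in w- flies and at 146, 120, 155, 176 and 182 CPM in w+ flies, and 4 of 5 w- libraries lay below every w+ library. The male difference of TotA was -0.44 ± 0.12 on the log2 scale, at an adjusted p of 0.058. It depended on the method, since DESeq2 gave -0.44 with an adjusted p of 0.00013 and a two-sided exact permutation test of this 1 gene gave p = 0.016, where 0.0079 is the lowest possible. Without the libraries numbered 2 it was -0.55 (edgeR adjusted p = 0.026), and over the 5 fits that each left out 1 replicate number the edgeR adjusted p ranged from 0.026 to 0.17. A single edgeR fit of all 20 libraries gave -0.44 ± 0.31 (adjusted p = 0.43).

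TotM in males showed the other difference near the threshold. It was at 0.64, 0.46, 0.55, 0.57 and 0.64 CPM in w- males and at 0.72, 0.90, 0.60, 0.93 and 1.41 CPM in w+ males. The highest w- libraries exceeded only 1 w+ library, replicate 3. The difference was -0.64 ± 0.22 on the log2 scale (edgeR adjusted p = 0.10), and the exact permutation test of this gene alone gave p = 0.024. DESeq2 gave an adjusted p of 0.42, an edgeR fit of all 20 libraries 0.20, and edgeR fits without 1 replicate number 0.061 to 0.35. The fat body markers moved in the same direction in these libraries, as 3 of 6 were lower in w- males, with sums of 4349.7 to 6661 CPM in w- males and 7065 to 10989.7 CPM in w+ males. The part of fat body content in the TotA and TotM values was not tested.

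TotC and TotX had smaller differences in males. TotC in w- and w+ males (values above) differed by -0.10 ± 0.21 (adjusted p = 0.82), and TotX by -0.23 ± 0.19 (adjusted p = 0.53). With no replicate block, TotX differed by -0.30 ± 0.22 and TotC by -0.12 ± 0.24. In such fits without w+ male replicate 4, the high library for both genes, TotX differed by -0.02 ± 0.05 and TotC by 0.12 ± 0.17.

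In females the libraries of a group lay farther apart than in males for TotA, TotC and TotM. TotA differed by -0.71 ± 0.42 on the log2 scale (adjusted p = 0.31), TotC by -0.47 ± 0.49 (adjusted p = 0.55), TotM by -0.43 ± 0.28 (adjusted p = 0.34) and TotX by 0.03 ± 0.16 (adjusted p = 0.93). For both TotA and TotC, 4 of 5 w- females lay below every w+ female while replicate 3 lay above every one. Single libraries were left out in fits with no replicate block. With no block, all libraries gave -0.48 ± 0.47 for TotA (adjusted p = 0.54) and 0.17 ± 0.73 for TotC (adjusted p = 0.90). Without w- female replicate 3, TotA differed by -1.04 ± 0.31 (adjusted p = 0.091) and TotC by -1.10 ± 0.31 (adjusted p = 0.078). Without w+ female replicate 4, TotC differed by 0.07 ± 0.79. With the block and without the libraries numbered 3, TotA differed by -1.10 and TotC by -0.96 (adjusted p = 0.052 for each). Of the 6 fat body markers 0 passed here, with sums of 7913 to 15180.5 CPM in w- females and 11565 to 24016 CPM in w+ females and a median difference of -0.52. The median of the 4 members was -0.45 in females and -0.34 in males, against 0.00 for all genes tested in each sex.

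A single fit of all 20 libraries tested whether females and males differed in the eye color difference itself. The interaction was -0.27 ± 0.46 for TotA, -0.35 ± 0.58 for TotC, 0.21 ± 0.38 for TotM and 0.25 ± 0.27 for TotX on the log2 scale, with adjusted p between 0.96 and 0.98. None of the 4 passed, where 0.0263% of all genes tested did.

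**Figure D4:**
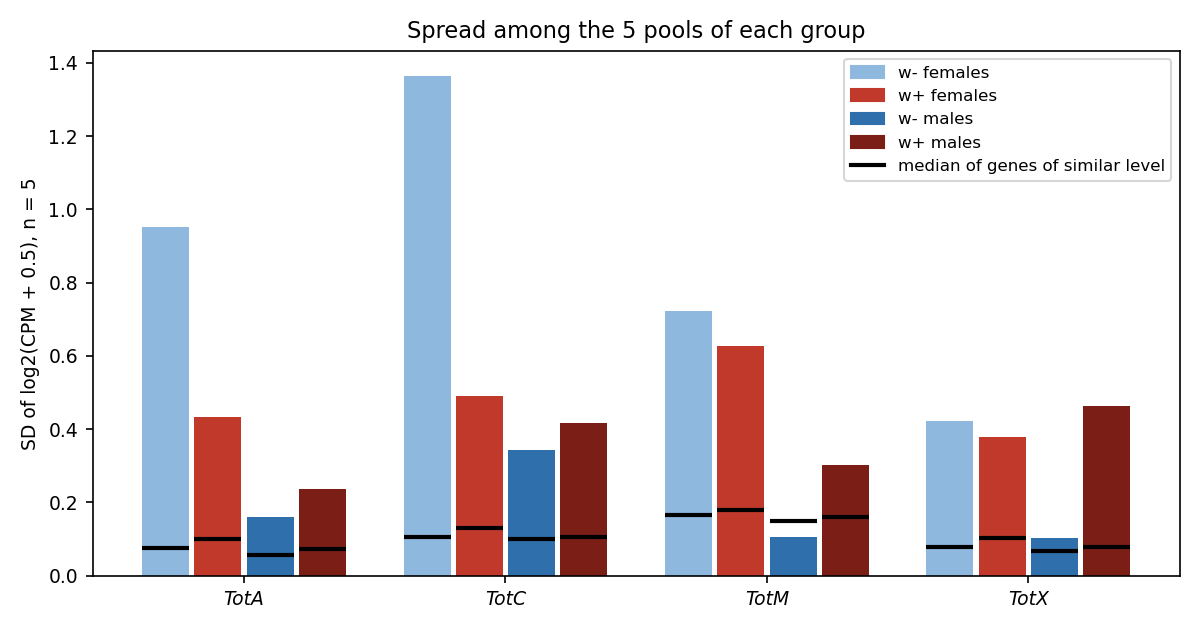
Standard deviation of log2(CPM + 0.5) among the 5 libraries of each group, for TotA, TotC, TotM and TotX, as bars, with the median of genes within 0.5 log2 units of the same mean level as a black line. TotA and TotC in w- females reach 0.95 and 1.36, while TotM and TotX in w- males stay at 0.11 and 0.10.

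The spread among libraries of a group was itself a feature of these genes. On the log2(CPM + 0.5) scale the within-group SD over all 20 libraries was 0.54 for TotA, 0.77 for TotC, 0.50 for TotM and 0.37 for TotX, against a median of 0.12 over the 11423 genes that passed the count filter. Each of the 4 was more variable than at least 94.2% of those genes. Compared with genes of similar level, TotA lay at percentile 99.6, TotC at 99.4, TotX at 97.2 and TotM at 96.1.

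The spread was unequal among the groups. In w- females the highest library exceeded the lowest 6.30 times for TotA, 13.8 times for TotC, 4.24 times for TotM and 2.13 times for TotX. In w- males these ratios were 1.32 for TotA, 1.91 for TotC, 1.41 for TotM and 1.18 for TotX. The SD of TotM in w- males, 0.11, lay at percentile 21.3 of genes of similar level, and that of TotX, 0.10, at percentile 78.9. In w- females replicate 3 was the highest library for all 4 genes and replicate 5 the lowest. Midgut markers were at 30.7 CPM in that replicate 3, as given above, and their part in its Turandot levels was not tested.

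**Figure D5:**
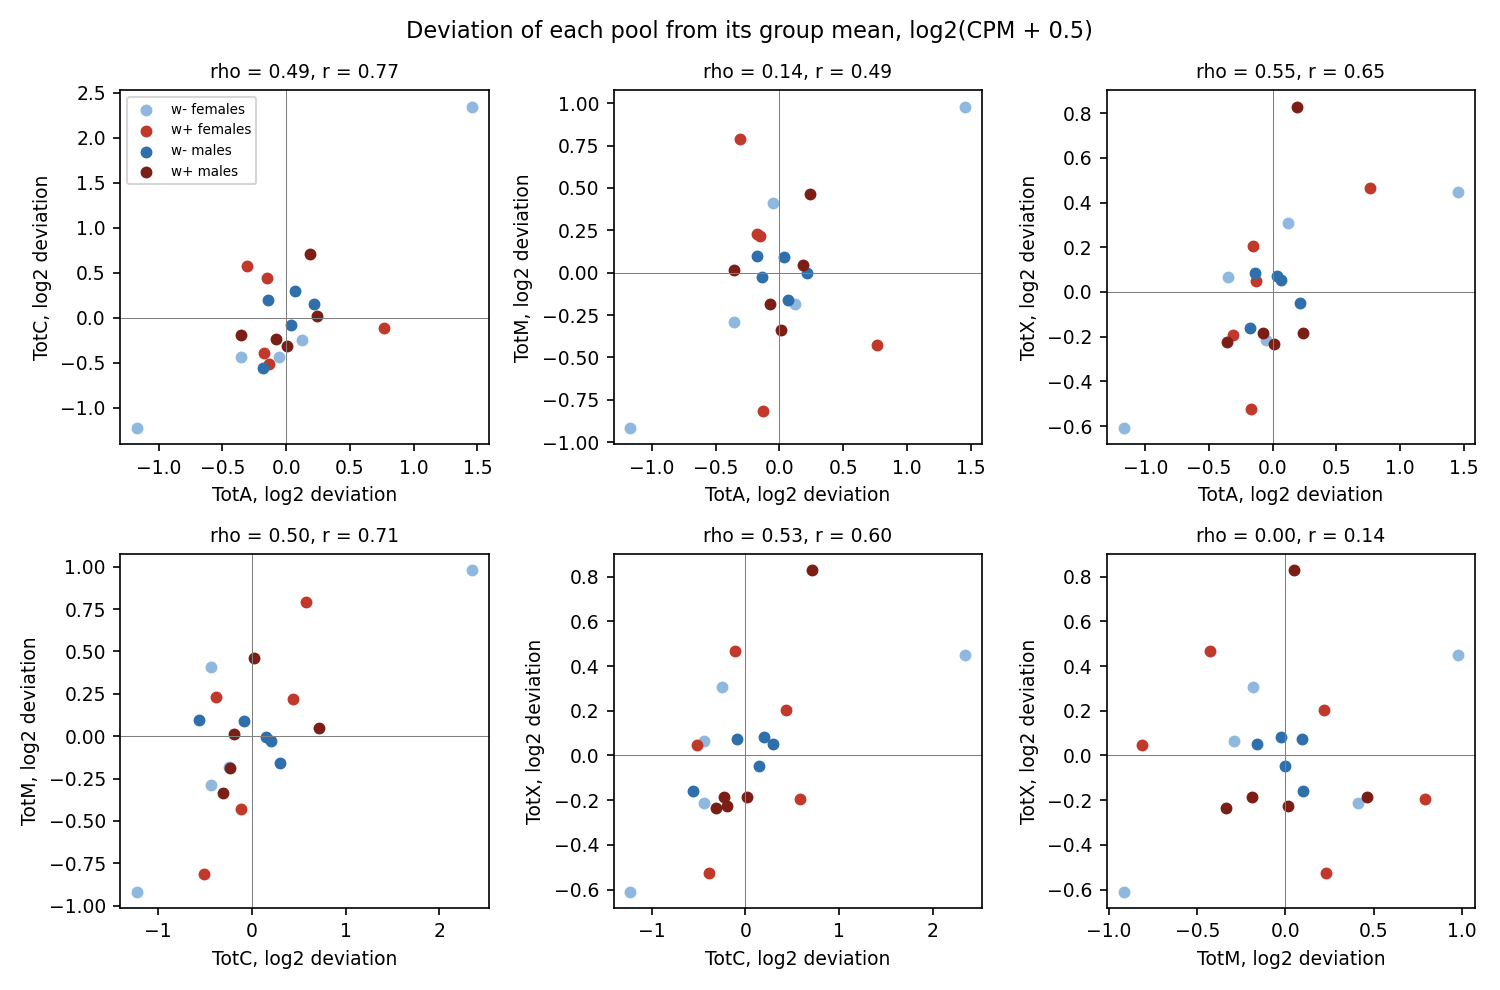
Deviation of each library from its group mean on the log2(CPM + 0.5) scale, for the 6 pairs of TotA, TotC, TotM and TotX, with 20 libraries in each plot. The points at the upper right and lower left of the plots of TotA against TotC are w- female replicates 3 and 5.

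Members were compared across libraries after the group means were removed. Over 20 libraries, Pearson's r was 0.77 for TotA with TotC (Spearman's rho = 0.49), 0.65 for TotA with TotX (rho = 0.55), 0.71 for TotC with TotM (rho = 0.50) and 0.60 for TotC with TotX (rho = 0.53). The permutation p of r for these 4 pairs were 0.023, 0.0061, 0.0074 and 0.011 (0.034, 0.021, 0.021 and 0.021 adjusted over the 6 pairs), and those of rho were 0.038, 0.026, 0.046 and 0.023 (0.069 adjusted for each). TotA with TotM had r = 0.49 and rho = 0.14 (permutation p = 0.16 and 0.61, adjusted 0.19 and 0.73), and TotM with TotX had r = 0.14 and rho = 0.00 (permutation p = 0.63 and 0.998, adjusted 0.63 and 0.998).

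The relations leaned on the ends of the w- female group. With w- female replicates 3 and 5 left out, r fell to 0.12 for TotA with TotC, 0.52 for TotA with TotX, 0.44 for TotC with TotM and 0.54 for TotC with TotX, and the permutation p of rho were then 0.39, 0.13, 0.24 and 0.088. The relation of TotA with TotC thus rested on those libraries, while the other 3 kept r of 0.44 or more but missed the threshold for rho. Within the 10 female libraries r was 0.79 for TotA with TotC and 0.78 for TotC with TotM. Within the 10 male libraries those r were 0.56 and 0.10, while TotC with TotX had r = 0.83, with w+ male replicate 4 high in both.

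None of 20 correlations of a member with a summed gene list passed the correction. The lists were fat body, hemocyte and neuron markers, antimicrobial peptides and heat shock proteins. A sum is led by the most abundant genes of its list, as by Hsp83 for the heat shock proteins. The rho ranged from -0.28 for TotC with the hemocyte markers to 0.46 for TotA with the antimicrobial peptides (r = 0.40, permutation p of rho = 0.081). The smallest adjusted p was 0.69 for rho and 0.70 for r. In w+ female replicate 4, the library with 5084 CPM of antimicrobial peptides, TotA was at 65.8, TotC at 7.59, TotM at 8.76 and TotX at 11.6 CPM, within or below the range of the other w+ females.

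For each member the 5 genes with the highest rho were named as the most alike in pattern, among 10583 genes and over the same 20 libraries with group means removed. These were picked for their rho, so no p is given. For TotA they were CG42876 (0.76), lncRNA:CR45321 (0.75), Tsp42Er (0.73), a tetraspanin, DptB (0.70), an antimicrobial peptide of the Imd response, and PGRP-SD (0.69), a secreted recognition protein for bacteria. For TotC they were CG43103 (0.79), CG9616 (0.73), CG13784 (0.72), mbc (0.72), an activator of the GTPase Rac, and Erasp (0.71). For TotM they were CG10026 (0.75), Ldh (0.73), the lactate dehydrogenase, CG15717 (0.72), Sdc (0.72), the proteoglycan syndecan, and MP1 (0.72), a protease of the melanization cascade. For TotX they were CG18180 (0.87), cerv (0.78), CG15362 (0.76), hebe (0.75) and asRNA:CR44891 (0.75). Several of the genes named were low, with medians of 0.27 CPM for CG18180, 0.30 CPM for lncRNA:CR45321 and 0.56 CPM for asRNA:CR44891. CG18180 averaged 6.88 CPM in w- females, 1.96 CPM in w+ females, 0.11 CPM in w- males and 0.20 CPM in w+ males.

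The pathway genes that lead to Turandot transcription were read against the same background, the 9.23% of genes called in females and 12.7% in males. The ligands were close to the limit of detection, with 2 to 7 reads a library for upd1, 1 to 19 for upd2 and 2 to 18 for upd3, so upd1 was not tested. Of the ligands and receptors, 0 of 4 tested genes differed between w- and w+ females and 0 of 3 between w- and w+ males. The ligand upd3 differed by 0.83 ± 0.27 on the log2 scale in females (adjusted p = 0.091), and the receptor dome by 0.12 ± 0.05 in females and 0.03 ± 0.05 in males (adjusted p = 0.16 and 0.76).

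Among 8 transducers and inhibitors, 1 was higher and 0 lower in w- females, and 2 were higher and 1 lower in w- males. The phosphatase Ptp61F, which opposes the pathway, was higher in w- flies by 0.14 ± 0.03 in females (adjusted p = 0.047) and by 0.18 ± 0.04 in males (adjusted p = 0.023). In males, ken, a repressor of some Stat92E targets, was higher by 0.19 ± 0.05 (adjusted p = 0.049), and Stat92E fell by 0.28 ± 0.07 (adjusted p = 0.049). Stat92E averaged 435 ± 44.5 CPM in w- females and 554 ± 120 CPM in w+ females, and 331 ± 27.5 CPM in w- males and 399.9 ± 43.0 CPM in w+ males (SD, n = 5 each), and its female difference was -0.33 ± 0.12 (adjusted p = 0.12). The kinase hop differed by 0.04 ± 0.03 in females and 0.09 ± 0.04 in males, and Socs36E, a target gene and feedback inhibitor, by 0.09 ± 0.05 and 0.04 ± 0.04, none past the threshold.

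In the stress kinase list of 12 genes, 1 was higher in w- females and 1 lower in w- males. The JNK phosphatase puc was higher by 0.20 ± 0.03 in w- females (adjusted p = 0.022), and the p38 kinase p38c fell by 0.98 ± 0.17 in w- males (adjusted p = 0.0095). Mekk1 differed by -0.01 ± 0.04 in females and -0.03 ± 0.04 in males (adjusted p = 0.95 and 0.60). Of 13 Imd pathway genes, 2 fell in w- females, where the adaptor imd fell by 0.27 ± 0.05 and the caspase Dredd fell by 0.26 ± 0.05 (adjusted p = 0.031 and 0.033). In w- males Rel fell by 0.35 ± 0.05 (adjusted p = 0.0054), and PGRP-LB, an amidase that dampens the pathway, was higher by 0.24 ± 0.06 (adjusted p = 0.044). Of 10 Toll pathway genes, 0 passed in females and 1 in males, the serpin nec, which fell by 0.32 ± 0.05 in w- males (adjusted p = 0.0061).

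Among other secreted products of stress and JAK/STAT signaling, the same 3 of 9 tested genes passed in both sexes, 1 of them higher and 2 lower in w- flies. The thioester protein Tep2 fell by 0.43 ± 0.05 in w- females and fell by 0.50 ± 0.11 in w- males (adjusted p = 0.0079 and 0.032). IM33, an immune-induced secreted peptide, fell by 0.58 ± 0.09 and fell by 0.53 ± 0.09 (adjusted p = 0.022 and 0.0095), and Tep3 was higher by 0.41 ± 0.09 and by 0.34 ± 0.05 (adjusted p = 0.045 and 0.0037). Of the antimicrobial peptides, 0 of 14 passed in females and 3 of 12 were lower in w- males. AttD fell by 3.37 ± 0.73, CecA1 fell by 3.06 ± 0.54 and CecA2 fell by 3.05 ± 0.32 (adjusted p = 0.028, 0.013 and 0.0015). These genes had 0 to 9, 1 to 23 and 1 to 7 reads a library in w- males. In w+ males they had 6 to 127, 7 to 147 and 5 to 76. AttD and CecA2 thus reached the count filter only through w+ males, which ties their direction to the filter, and the sizes of the falls are uncertain. In fits with no replicate block, 4 of 12 were lower in w- males with all libraries and 0 of 12 without w+ male replicate 4. In females the median of these peptides was 0.54 with the block and -1.68 with no block. With no block it was 0.60 without w+ female replicate 4 and -2.13 without w- female replicate 3. In each of these female fits 0 of 14 passed. Of 9 tested heat shock protein genes, 0 passed in either sex. The list medians in females and males were 0.19 and -0.36 for the ligands and receptors, 0.04 and 0.06 for the transducers and inhibitors, 0.01 and -0.01 for the stress kinases, -0.04 and -0.05 for the Imd pathway, -0.09 and -0.10 for the Toll pathway, -0.03 and -0.34 for the secreted products, 0.54 and -1.83 for the antimicrobial peptides and 0.05 and 0.12 for the heat shock proteins, beside the 0.00 of all genes.

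Between the sexes, these lists are set beside the 21.4% of genes called higher and 19.2% called lower in w- females, and the 16.9% and 11.9% in w+ females. In w- flies, females were higher in 12 of 14 antimicrobial peptides, with a median log2 difference of 4.13 (12 and 3.91 without w- female replicate 3). AttD, CecA2, CecB and CecC had at most 9, 7, 5 and 6 reads in a w- male library. These genes thus entered the fit only through w- females, which ties their direction to the filter, and the size of the median is uncertain. Females of w- flies were also higher in 6 of 9 secreted products, 4 of 13 Imd and 5 of 10 Toll genes. In w+ flies, females were higher in 2 of 14 antimicrobial peptides and lower in 1, with a median of 3.62, which was 0.93 over 13 tested genes without w+ female replicate 4 (2 higher, 0 lower). Females of w+ flies were also higher in 6 of 9 secreted products, 3 of 13 Imd and 3 of 10 Toll genes. Stat92E was higher in females by 0.40 ± 0.08 in w- flies (adjusted p = 0.0016) and by 0.48 ± 0.14 in w+ flies (adjusted p = 0.025). Among the ligands and receptors, 1 of 4 was higher in w- females, the short receptor et, which dampens the pathway, by 0.27 ± 0.10 (adjusted p = 0.048), and 0 of 3 differed in w+ flies. Of 9 heat shock protein genes, 1 was higher and 2 lower in w- females, and 0 were higher and 2 lower in w+ females. Mekk1 differed by 0.06 ± 0.04 in w- flies and 0.05 ± 0.04 in w+ flies (adjusted p = 0.17 and 0.40).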

How the data were processed

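The authors trimmed the reads of each library with Trim Galore 0.6.1, aligned them with STAR 2.5.4b to the r6.60 release of the Drosophila genome and deposited STAR's reverse-strand counts per gene, which are whole numbers without normalization. Their normalized tables were not used. The members and gene lists were chosen with earlier results of these data known. Genes had to reach 10 counts in 3 or more of the 20 libraries, and in 3 or more of the 10 of a sex, so 4 of the 5 members were tested.

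Fits used edgeR 4.0.16 in R 4.3.3 (TMM, robust quasi-likelihood, Benjamini-Hochberg over all genes, threshold 0.05). The eye color fits held 1 sex each and the replicate number as a block, as in the authors' supplementary code, the interaction used 10 blocks, and the sex fits had no block. The SE is the log2 fold change over the square root of F. Alternatives were DESeq2 1.42.0, other scalings and filters, fits without the block, and left-out libraries, 3 of which were left out singly after their values were seen. Correlations used log2(CPM + 0.5) with 100000 permutations within groups, whose p-values were added to a planned description. A self-test on simulated counts was passed. Of 40 pairs of libraries within a group, 0 were copies.

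Named genes were the 5 members, the rest of the family, w, the 5 genes most alike to each tested member, up to 4 called genes a list with the largest fold change, neighbors of members and 10 preset pathway genes. Positions are those of Ensembl for BDGP6.54, the same assembly release as r6.60. Of 17609 gene IDs, 17596 had a symbol. Sequences are not used here.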

Additional observations from a re-analysis of the deposited data

Results flagged for a closer look

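In 5 of 20 sets of 5 libraries (4 members and w, in 4 groups), the highest library lay far from the others, its gap to the next library being over 0.71 of the set's range. Chance sets off this criterion in about 1 in 20 sets of normally distributed values, whereas CPM were used here without logs. TotA was at 127 CPM in w- female replicate 3, with the next at 49.9 CPM, and at 127 CPM in w+ female replicate 1, with the next at 67.8 CPM. TotC was at 39.8 CPM in w- female replicate 3, with the next at 6.19 CPM, and at 12.1 CPM in w+ male replicate 4, with the next at 7.30 CPM. TotX was at 133 CPM in w+ male replicate 4, with the next at 65.5 CPM. All 5 were high values, and 2 libraries held 2 of them each.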

How the results depend on the processing

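For the 20 member differences, 239 alternatives left 230 on the same side of the threshold and moved 9 past it. There were 0 reversals of a called value and 15 changes of sign, all in values that did not pass. The exact tests entered this tally by their unadjusted p, and those of TotA and TotM in males are among the 9. No fit gave TotM in males an adjusted p below 0.061. TotM and TotX between the sexes passed in every alternative run, from 2.85 to 3.64 and from -2.42 to -1.75, and TotA in w+ flies from -1.27 to -0.90. TotA in males gave -0.45 with no replicate block (adjusted p = 0.028), -0.44 with DESeq2 (0.00013), -0.44 in the exact test (p = 0.016), -0.44 in 1 fit of all 20 libraries (adjusted p = 0.43) and -0.55 to -0.34 without a replicate. TotM in males gave -0.38 in the exact test (p = 0.024). Between the sexes in w- flies, TotA gave -1.23 by library size alone (adjusted p = 0.038), -1.05 after the shift of all genes, and -1.64 to -0.88 without a replicate. TotC in w+ flies gave 0.28 to 0.86 without a replicate. DESeq2 gave no p-value for TotC in w- flies. Library size alone moved the median of all genes by 0.14 (w- against w+ females), -0.18 (sexes, w-) and -0.26 (sexes, w+).

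Counts of all genes moved more. In females 993 genes differed with eye color, 508 higher, against 659 with no replicate block, 1704 with DESeq2, 2215 by library size alone (1840 higher), 2068 in 1 fit of all 20 libraries, and 82 to 1121 without a replicate. With no block, where all libraries gave 659, the count was 383 without w- female replicate 3 and 354 without w+ female replicate 4. In males 1421 differed, 519 higher (1776 and 1054 by library size alone), and 714 to 1576 without a replicate. The interaction had 3, 18 with DESeq2 and 0 to 5 without a replicate. Between the sexes, w- flies had 4422, 2330 higher (6258 and 1182 by library size alone), and w+ flies 3150, 1845 higher (6266 and 603), and 1800 to 3426 without a replicate. The causes of these moves were not tested.

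Not every same-numbered pair's deviations correlated over 0.1, so this check did not show that the replicate numbers pair the samples. The mean correlation was 0.0046 in females (0.0022 for other numbers), with 1 of 5 pairs over 0.1. In males it was 0.077 (-0.019 for other numbers), with 3 of 5. The eye color and interaction fits still held the replicate number as a block, and their main p-values rest on that choice. Of the rho between members past 0.05, all 4 missed it without the 2 libraries farthest from the median, and TotC with TotM also at pseudocounts of 0.1 and 1 (0.48 and 0.49). TotB, upd1 and, in males, TotM, AttD and CecA2 are limited by depth.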

Other observations

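Of the 13 heat shock genes in the table, the summed level followed the replicate number in all 4 groups, a split noticed after the values were seen. The sum mostly reflects Hsp83, at 314 to 1071 CPM over the libraries. DnaJ-1 lay at 90.3 to 179 CPM, and no other gene of the list exceeded the 30.6 CPM of Hsp68. The split is thus not shown for each gene of the list. Replicates 4 and 5 summed to 549 to 573 CPM in w- females, 456 to 491 CPM in w+ females, 542 to 546 CPM in w- males and 453 to 495 CPM in w+ males. Replicates 1, 2 and 3 summed to 779 to 1078 CPM in w- females, 758 to 1038 CPM in w+ females, 849.7 to 1173 CPM in w- males and 820.3 to 1301 CPM in w+ males. No library of the first kind reached one of the second. What libraries of a number share is not given in the sources used here. The Turandot members had rho of -0.18 to 0.17 with this sum.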
